A study of Homo sapiens with 6 samples.

Results

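The 10 genes described here encode feedback inhibitors of mitogen-activated protein kinase (MAPK) signaling: the dual-specificity phosphatases DUSP1, DUSP4, DUSP5, DUSP6 and DUSP10, the Sprouty proteins SPRY1, SPRY2 and SPRY4, and the Sprouty-related proteins SPRED1 and SPRED2. They were chosen by gene symbol and not by a rule on their values, but with earlier results of these data known. Each symbol matched 1 of the 18118 genes counted in the SU-CCS-1 cell line. All 10 were among the 14571 genes that passed the filter on low counts, in all 6 libraries analysed.

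In MAPK signaling, a growth factor receptor activates RAS, RAS activates RAF kinases, RAF activates MEK, and MEK activates the kinases ERK1 and ERK2. DUSP proteins of the MAPK phosphatase family remove the activating phosphates from MAP kinases, whereas Sprouty and SPRED proteins act upstream, between the receptor and RAF. Several of these genes are themselves induced when ERK is active, so that their transcripts form a negative feedback loop and are often read as a record of pathway output. In clear cell sarcoma (CCS), a soft-tissue tumor with melanocytic features, the EWSR1::ATF1 fusion (EA1) joins the amino terminal part of EWSR1 to the DNA-binding part of ATF1, a factor of the ATF/CREB family that recognizes the cyclic AMP response element (CRE).

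SU-CCS-1 is an established CCS cell line that carries EA1. Its cells received 5 pmol of siRNA for 48 h, either the negative control siNeg1 (2 libraries) or 1 of 2 siRNAs directed at EA1, called EA1 siRNA 1 and EA1 siRNA 2 (2 libraries each). All cells shared the same line, transfection and time point, and there was no untransfected group. The methods of the study name a single EA1 siRNA product, whereas the sample labels list both, and the labels do not say whether replicates came from separate cultures, so p-values measure the spread between these libraries, which may be technical.

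Poly(A) RNA was sequenced and counted per gene, with totals between 5942808 and 7599305 counts per library, at which 3 counts correspond to 0.395 to 0.505 CPM (counts scaled to library size). Levels below are CPM scaled by the trimmed mean of M values (TMM), and log2FC is positive where control exceeded knockdown. ATF1, which counts both the native transcript and the part held in EA1, fell from 84.8 ± 3.72 CPM in control to 20.7 ± 0.658 under EA1 siRNA 1 and 22.0 ± 0.424 under EA1 siRNA 2 (SD, n = 2 each; log2FC 2.03 and 1.94, adjusted p 6.7e-07 and 1.05e-06). EWSR1, which likewise counts the native transcript and the part held in EA1, had a log2FC of 0.11 (adjusted p = 0.45) and 0.045 (adjusted p = 0.789). The second value turned to -0.046 without control replicate 2 and to 0 without EA1 siRNA 2 replicate 2. Counts per gene cannot tell the fusion from the native transcripts. Of 8 melanocytic and neural crest markers, all passed the filter, and their summed level was 2750 to 3010 CPM in control, 8010 to 8110 under EA1 siRNA 1 and 7390 to 12000 under EA1 siRNA 2. The markers did not shift alike. PMEL, a large part of the sum, rose from 1397 and 1043 CPM in control to between 4241 and 7768 in knockdown. SOX10 overlapped, with 785.5 and 867.7 CPM in control and 847.4 to 979 in knockdown, and MLANA had only 4 and 0 counts in control. The 2 measured fibroblast markers of 4 summed to 2.7 to 3.44 CPM in control and 8.89 to 23 in knockdown, and no epithelial, leukocyte, endothelial or skeletal muscle marker passed the filter. The part of these shifts in the results below was not tested.

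EA1 keeps the DNA-binding part of ATF1, so the RefSeq promoter windows (GRCh38.p14) of the members were searched on both strands for the full CRE, TGACGTCA, and its 5-base core, TGACG, which the full CRE holds on both strands. Windows of 300 bases were held for 8 of the 10 members, all but DUSP4 and DUSP5. The full CRE was found in the window of 1 member, DUSP1, and in 1.85% of all 35116 windows. The 8 members have 13 windows, since some have several starts, and a core was found in 5 of the 13, 1 each for DUSP1, DUSP10, SPRY2, SPRY4 and SPRED2, beside 24.6% of all windows. The 250 bases before the start of DUSP1 (chr5:172771196-172771445, minus strand), SPRY2 (chr13:80341127-80341376, minus strand) and SPRY4 (chr5:142324248-142324497, minus strand) are shown, because these members carry a CRE match there and were higher in both control libraries than in all 4 knockdown libraries. The sequence of DUSP8 (chr11:1572272-1572521, minus strand), a relative of the members with a like pattern, is shown because it holds 2 full CREs. Of the other relatives, SPRY3, whose knockdown libraries lay above control, has a core 105 bases before 1 of its starts, and DUSP2, DUSP7 and DUSP16 have no motif searched. All run 5′ to 3′ on the gene's strand toward the start, with CRE matches in capitals.
DUSP1: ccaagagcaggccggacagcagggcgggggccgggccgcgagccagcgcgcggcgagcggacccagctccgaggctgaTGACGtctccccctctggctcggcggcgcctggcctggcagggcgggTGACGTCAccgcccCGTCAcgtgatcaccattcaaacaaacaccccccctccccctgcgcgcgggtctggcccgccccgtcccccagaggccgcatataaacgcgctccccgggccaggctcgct
SPRY2: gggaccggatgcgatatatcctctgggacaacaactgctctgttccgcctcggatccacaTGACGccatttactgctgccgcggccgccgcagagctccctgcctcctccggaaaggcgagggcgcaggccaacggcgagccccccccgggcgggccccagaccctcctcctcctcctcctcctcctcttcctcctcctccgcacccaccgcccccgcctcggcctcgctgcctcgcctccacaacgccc
SPRY4: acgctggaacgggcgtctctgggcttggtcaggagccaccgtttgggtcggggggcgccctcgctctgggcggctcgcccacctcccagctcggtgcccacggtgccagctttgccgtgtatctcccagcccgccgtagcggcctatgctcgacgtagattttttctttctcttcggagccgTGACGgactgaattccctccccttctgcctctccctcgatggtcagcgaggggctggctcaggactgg
DUSP8: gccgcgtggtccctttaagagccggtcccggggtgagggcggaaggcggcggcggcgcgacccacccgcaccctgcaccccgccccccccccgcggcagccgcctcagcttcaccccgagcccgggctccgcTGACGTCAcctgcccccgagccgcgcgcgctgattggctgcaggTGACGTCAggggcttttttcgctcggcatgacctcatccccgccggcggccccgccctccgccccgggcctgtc

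In DUSP1 the full CRE began 125 bases before the start, with further CRE cores at 172 and 111 bases. The CRE core of SPRY2 lay 190 bases before 1 of its 3 starts and that of SPRY4 68 bases before the only start searched. As annotated, SPRY4 reaches chr5:142326455, upstream of that window, so a start there was not searched. The full CREs of DUSP8 began at 118 and 74 bases. Within the 250 bases before the start alone, the share of all promoters was 1.65% for the full and 21.2% for the CRE core, and the CRE cores of DUSP10 and SPRED2 fell outside it or ran past the start. Of the other motifs searched, the AP-1 motif TGANTCA (7.71% of all windows) was found in SPRED2, the ETS motif CCGGAAG (10.3%) in SPRY1, and 3 joined TGA units, TGATGATGA (0.308%), in no member. No motif searched was found in the windows of DUSP6 and SPRED1. These matches are descriptions of the reference sequence and no measure of binding. The shown promoters were picked on both the match and the knockdown values, so they cannot tie one to the other. DUSP6 and SPRED2 were likewise higher in both control libraries than in all 4 knockdown libraries, without a CRE match in those 250 bases.

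Under EA1 siRNA 1, 6 of the 10 members were higher in control (20.3% of all tested genes were called in that direction) and 0 were lower (19.9% of all genes), called by the quasi-likelihood test of edgeR at an adjusted p under 0.05 (Benjamini-Hochberg, over all tested genes). No member was lower in control at an unadjusted p under 0.05 either, nor by DESeq2. Under EA1 siRNA 2, 7 members were higher in control (18.2% of all genes) and 1, DUSP10, was lower (18.5%). Against the mean of both siRNAs, 8 were higher (22.1% of all genes) and 1 was lower (21.5%). The 8 became 6 by DESeq2, with the 4 knockdown libraries as 1 condition, without control replicate 1 and without EA1 siRNA 1 replicate 2. The median log2FC of the members was 0.85 under EA1 siRNA 1 and 1.08 under EA1 siRNA 2, beside -0.024 and 0 over all tested genes. These contrasts share their control libraries, so they are not independent of each other. In bulk libraries, fewer cells that express a gene and less RNA per cell cannot be told apart.

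**Figure D1:**
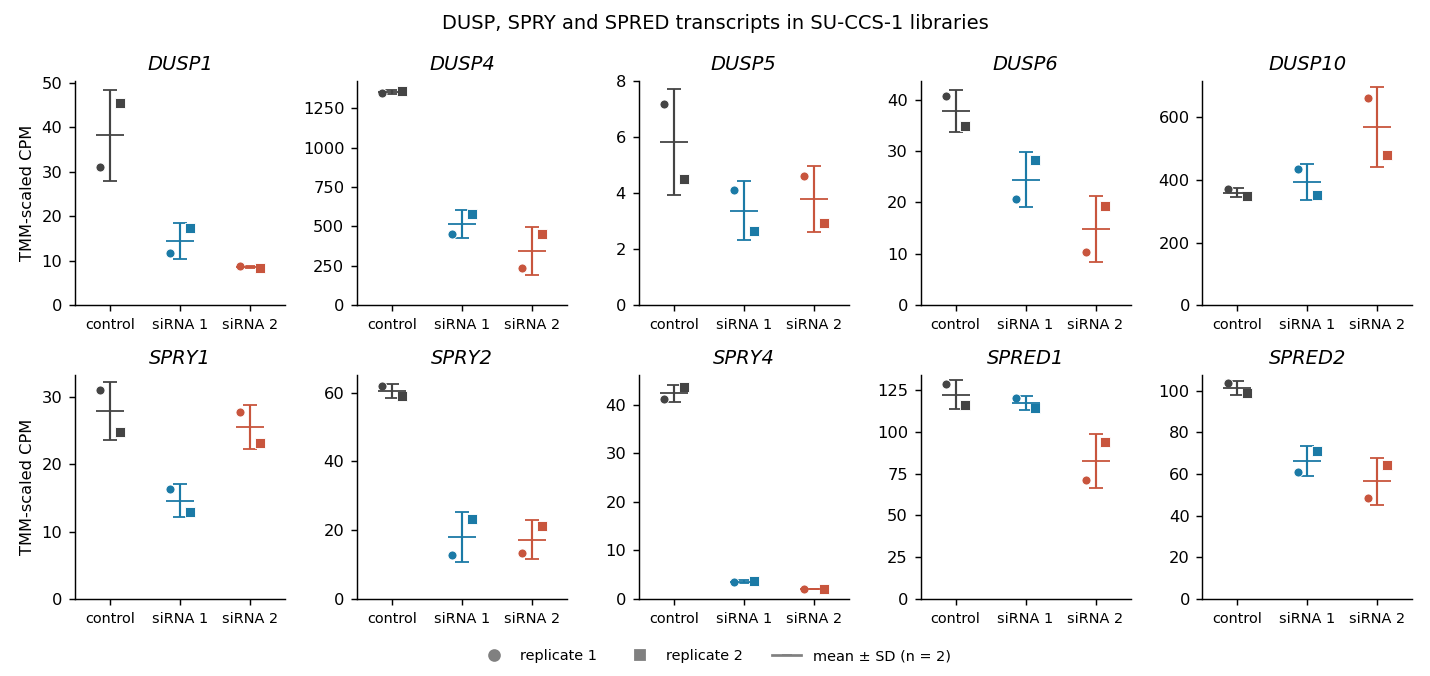
TMM-scaled CPM of each member (y axis, from 0) in control, EA1 siRNA 1 and EA1 siRNA 2 libraries (x axis); circles and squares are replicates 1 and 2, and bars give the mean ± SD (n = 2). DUSP1, DUSP4, DUSP6, SPRY2, SPRY4 and SPRED2 lie higher in both control libraries than in all 4 knockdown libraries, and DUSP10 is highest under EA1 siRNA 2.

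DUSP1 (ENSG00000120129; hg38 chromosome 5, 172768096 to 172771195) encodes a nuclear phosphatase that acts on ERK, JNK and p38 kinases and is induced by growth factors and stress. It measured 31.0 and 45.4 CPM in control, 11.7 and 17.3 under EA1 siRNA 1, and 8.72 and 8.42 under EA1 siRNA 2. Both control libraries lay above all knockdown libraries, and those of EA1 siRNA 1 above those of EA1 siRNA 2. Control was 2.66-fold higher than EA1 siRNA 1 (log2FC 1.41, SE 0.23, adjusted p = 0.000541) and 4.46-fold higher than EA1 siRNA 2 (log2FC 2.16, SE 0.25, adjusted p = 5.04e-05).

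DUSP4 (ENSG00000120875; hg38 chromosome 8, 29333064 to 29350684), a nuclear phosphatase closely related to DUSP1, had the highest level of all members in control. It reached 1344 and 1360 CPM in control, 451.5 and 576 under EA1 siRNA 1, and 237 and 452 under EA1 siRNA 2. The control libraries were close together (1352 ± 11.3, SD, n = 2) and stood above all others, whereas the EA1 siRNA 2 replicates were far apart and the ranges of the siRNAs overlapped. The fall was 2.63-fold under EA1 siRNA 1 (log2FC 1.396, SE 0.23, adjusted p = 0.000552) and 3.92-fold under EA1 siRNA 2 (log2FC 1.97, SE 0.24, adjusted p = 6.56e-05). DUSP5 (ENSG00000138166; chromosome 10, 110497907 to 110511533), a nuclear phosphatase specific for ERK, was the least expressed phosphatase of the 5, with 48 and 35 counts in control, 29 and 16 under EA1 siRNA 1, and 26 and 21 under EA1 siRNA 2. Its levels of 5.84 ± 1.90, 3.38 ± 1.05 and 3.79 ± 1.19 CPM (SD, n = 2) did not differ beyond their spread (log2FC 0.77, 95% interval -0.14 to 1.67, adjusted p = 0.163; log2FC 0.63, interval -0.27 to 1.53, adjusted p = 0.26).

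DUSP6 (ENSG00000139318; hg38 chromosome 12, 89347235 to 89352501) encodes the cytoplasmic phosphatase that is specific for ERK and is widely used as a reporter of ERK activity. Its levels were 40.7 and 34.8 CPM in control, 20.6 and 28.2 under EA1 siRNA 1, and 10.3 and 19.4 under EA1 siRNA 2, so that the 3 groups did not overlap. The change reached the threshold under EA1 siRNA 2 (log2FC 1.32, SE 0.26, adjusted p = 0.00181) and missed it under EA1 siRNA 1 (log2FC 0.63, SE 0.24, adjusted p = 0.0574). With the replicate number as a block, the EA1 siRNA 1 contrast was past the threshold (log2FC 0.65, adjusted p = 0.0184), as it also was without EA1 siRNA 2 replicate 1 (0.66, adjusted p = 0.00446) or replicate 2 (0.66, adjusted p = 0.00538), without the low-count filter (adjusted p = 0.0454) and over only the 4 libraries compared (0.65, adjusted p = 0.00674). A long noncoding RNA (ENSG00000274021) on the opposite strand covers 28.6% of the exon length of DUSP6. Counting by strand is not given in the sources used here, so reads in this overlap may be mixed in or lost. The noncoding RNA held 110 counts over the 6 libraries.

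DUSP10 (ENSG00000143507; hg38 chromosome 1, 221701424 to 221742089) encodes a phosphatase that prefers the stress kinases JNK and p38 over ERK, and it was the only member called in the opposite direction. It measured 369.6 and 349 CPM in control, 435 and 353 under EA1 siRNA 1, and 660.4 and 479 under EA1 siRNA 2. Both EA1 siRNA 2 libraries lay above every other library, whereas EA1 siRNA 1 overlapped with control. DUSP10 was 1.58-fold higher under EA1 siRNA 2 than in control (log2FC -0.66, SE 0.15, adjusted p = 0.00502), a call that ended without control replicate 2 (-0.59, adjusted p = 0.0519). Under EA1 siRNA 1 the log2FC was -0.13 (adjusted p = 0.524), and it turned to 0.024 without EA1 siRNA 1 replicate 1. The call against the mean of both siRNAs (log2FC -0.40, adjusted p = 0.0297) was lost without control replicate 1 (adjusted p = 0.0992), control replicate 2 (0.208) or EA1 siRNA 1 replicate 1 (0.0967).

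Sprouty proteins are induced by receptor tyrosine kinase signaling and restrain it upstream of ERK. SPRY4 (ENSG00000187678; hg38 chromosome 5, 142310427 to 142326455) showed the largest change of the 10 members with each siRNA, from 275 and 339 counts in control to 24 and 23 under EA1 siRNA 1 and 12 and 15 under EA1 siRNA 2. This corresponds to 41.2 and 43.6 CPM in control, 3.41 and 3.79 under EA1 siRNA 1, and 2.14 and 2.11 under EA1 siRNA 2. All replicates were close together and the 3 groups were fully separate, in the order control, EA1 siRNA 1, EA1 siRNA 2. Control was 11.75-fold higher than EA1 siRNA 1 (log2FC 3.55, SE 0.21, adjusted p = 4e-07) and 19.8-fold higher than EA1 siRNA 2 (log2FC 4.31, SE 0.23, adjusted p = 2.96e-07).

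SPRY2 (ENSG00000136158; hg38 chromosome 13, 80335976 to 80341126), the most broadly studied Sprouty gene, was lower in all knockdown libraries. Its levels were 62.0 and 59.1 CPM in control, 12.8 and 23.2 under EA1 siRNA 1, and 13.4 and 21.2 under EA1 siRNA 2. The knockdown libraries lay far below control, and their ranges overlapped with each other. The log2FC was 1.76 (SE 0.25, adjusted p = 0.000188) and 1.79 (SE 0.25, adjusted p = 0.000214). SPRY1 (ENSG00000164056; chromosome 4, 123396795 to 123403760) measured 31.0 and 24.8 CPM in control, 16.4 and 12.9 under EA1 siRNA 1, and 27.8 and 23.2 under EA1 siRNA 2. Only the EA1 siRNA 1 libraries were separate from control, and those of EA1 siRNA 2 overlapped with it. The fall under EA1 siRNA 1 was 1.90-fold (log2FC 0.93, SE 0.20, adjusted p = 0.00295), whereas under EA1 siRNA 2 the log2FC was 0.13 (95% interval -0.28 to 0.55, adjusted p = 0.626) and turned to -0.035 without control replicate 1. Against the mean of both siRNAs SPRY1 was called (log2FC 0.53, adjusted p = 0.0209), but not without control replicate 1 (adjusted p = 0.214), without EA1 siRNA 1 replicate 2 (0.0599), by DESeq2 (0.0535) or with the 4 knockdown libraries as 1 condition (0.172).

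SPRED proteins bind RAS pathway components at the membrane, and SPRED1 recruits neurofibromin, which switches RAS off. SPRED2 (ENSG00000198369; hg38 chromosome 2, 65310851 to 65432637) measured 103.6 and 98.7 CPM in control, 61.2 and 71.1 under EA1 siRNA 1, and 48.6 and 64.4 under EA1 siRNA 2. Both control libraries were above all knockdown libraries, whose groups overlapped. SPRED2 fell 1.53-fold under EA1 siRNA 1 (log2FC 0.61, SE 0.14, adjusted p = 0.00396) and 1.78-fold under EA1 siRNA 2 (log2FC 0.83, SE 0.14, adjusted p = 0.000692), and the first call ended without EA1 siRNA 1 replicate 1 (0.51, adjusted p = 0.0561).

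SPRED1 (ENSG00000166068; hg38 chromosome 15, 38252836 to 38357249) measured 128 and 116 CPM in control, 120.2 and 114 under EA1 siRNA 1, and 71.2 and 94.1 under EA1 siRNA 2. The EA1 siRNA 1 libraries overlapped with control, and those of EA1 siRNA 2 were lower than all others. Under EA1 siRNA 1 the log2FC was 0.058 (95% interval -0.23 to 0.34, adjusted p = 0.756; -0.015 without control replicate 1), and under EA1 siRNA 2 it was 0.56 (SE 0.13, adjusted p = 0.00602). The latter call ended without control replicate 1 (0.48, adjusted p = 0.0553). Against the mean of both siRNAs the log2FC was 0.31 (adjusted p = 0.0421), and this call was lost on leaving out control replicate 1 (adjusted p = 0.273), control replicate 2 (0.0589), EA1 siRNA 1 replicate 1 (0.0765) or EA1 siRNA 1 replicate 2 (0.0897), by DESeq2 (0.061) and with the 4 knockdown libraries as 1 condition (0.231).

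**Figure D2:**
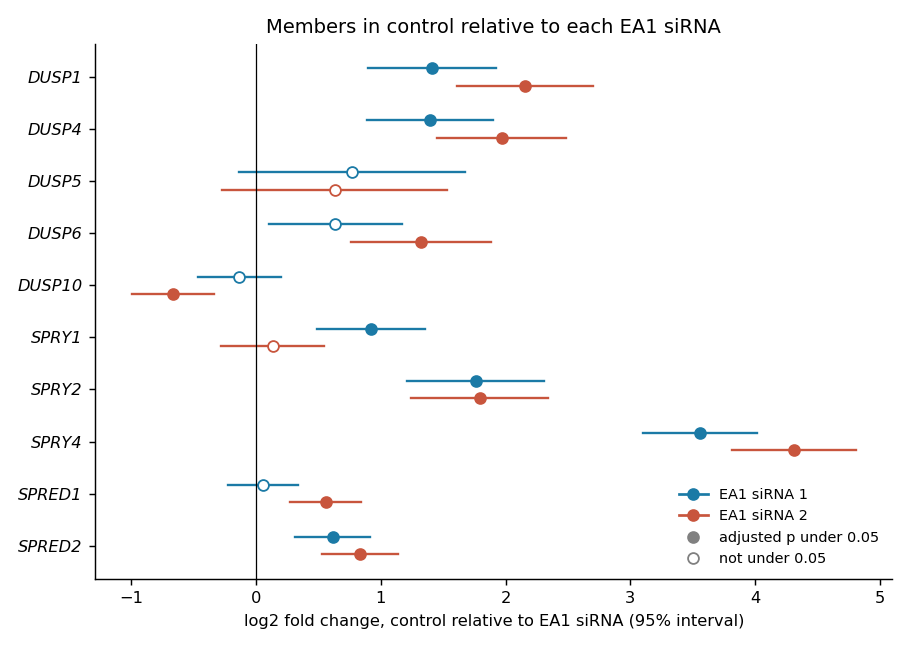
log2 fold change of each member in control relative to EA1 siRNA 1 (blue) and EA1 siRNA 2 (red), with 95% intervals from edgeR; filled points have an adjusted p under 0.05. SPRY4 stands at 3.55 and 4.31. DUSP10 lies below 0 with both, but its interval under EA1 siRNA 1 includes 0 (-0.46 to 0.20).

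The phosphatases DUSP4 and DUSP10 made up most of the summed CPM of the members in every library. These sums and shares are not scaled to exon length, 7.27 kb for DUSP4 and 2.83 kb for DUSP10, so longer genes weigh more. Levels per length are given below. All members together summed to 2158 and 2136 CPM in control, 1137 and 1202 under EA1 siRNA 1, and 1084 and 1167 under EA1 siRNA 2. DUSP4 accounted for 62.3% and 63.7% of this sum in control, 39.7% and 47.9% under EA1 siRNA 1, and 21.8% and 38.7% under EA1 siRNA 2. Without DUSP4, the remaining phosphatases summed to 448 and 434 CPM in control, 471 and 401 under EA1 siRNA 1, and 684 and 510.2 under EA1 siRNA 2. This remainder holds the lower DUSP1 and DUSP6 of knockdown and also DUSP10, which was called higher with EA1 siRNA 2 but not with EA1 siRNA 1. Without DUSP4 and DUSP10, the other 8 members summed to 445 and 427 CPM in control, 250.3 and 273 under EA1 siRNA 1, and 187 and 236 under EA1 siRNA 2. The 3 Sprouty genes summed to 134 and 127.5 CPM in control and to 32.6 to 46.5 over the knockdown libraries. SPRED1 and SPRED2 together summed to 232 and 215 CPM in control and 119.8 to 185 in knockdown.

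**Figure D3:**
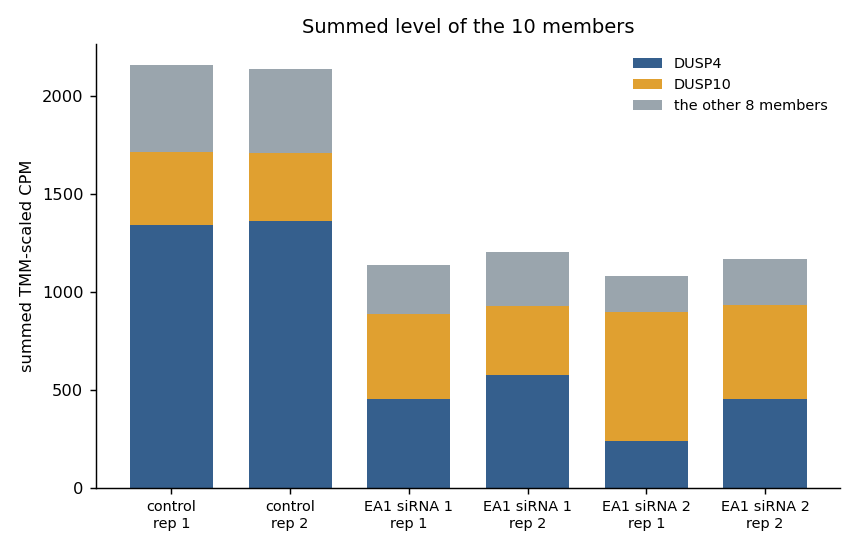
Summed TMM-scaled CPM of the 10 members (y axis, from 0) in each of the 6 libraries (x axis), split into DUSP4, DUSP10 and the other 8 genes. DUSP4 is the largest share of CPM in control, 62.3% and 63.7%, and DUSP10 exceeds it in both EA1 siRNA 2 libraries. The CPM are not scaled to exon length, and per kb DUSP10 exceeded DUSP4 with each EA1 siRNA.

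Per length, the order of the members also differed between conditions. In control, DUSP4 led at 186 ± 1.56 CPM per kb of merged exons (SD, n = 2), followed by DUSP10 at 127 ± 5.08. DUSP1 (19.0 ± 5.06), SPRY2 (18.9 ± 0.623) and SPRED2 (18.4 ± 0.624) came next, and these neighbours did not differ beyond their spread. SPRED1 (15.8 ± 1.12), DUSP6 (9.79 ± 1.08), SPRY1 (7.04 ± 1.10), SPRY4 (6.46 ± 0.262) and DUSP5 (2.31 ± 0.749) followed in that order. Among these, only SPRY1 and SPRY4 overlapped. The values of SPRED1 (14.97 to 16.55) also overlapped with those of DUSP1 (15.39 to 22.55). With each EA1 siRNA, DUSP10 was first (139 ± 20.5 and 202 ± 45.3 CPM per kb), DUSP4 second (70.7 ± 12.1 and 47.4 ± 21.0) and SPRED1 next (15.1 ± 0.538 and 10.7 ± 2.09), although under EA1 siRNA 2 its range overlapped with that of SPRED2 (10.3 ± 2.04). SPRY4 was last with both, at 0.549 ± 0.0404 and 0.324 ± 0.00324 CPM per kb, below DUSP5 at 1.33 ± 0.415 and 1.49 ± 0.469.

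**Figure D4:**
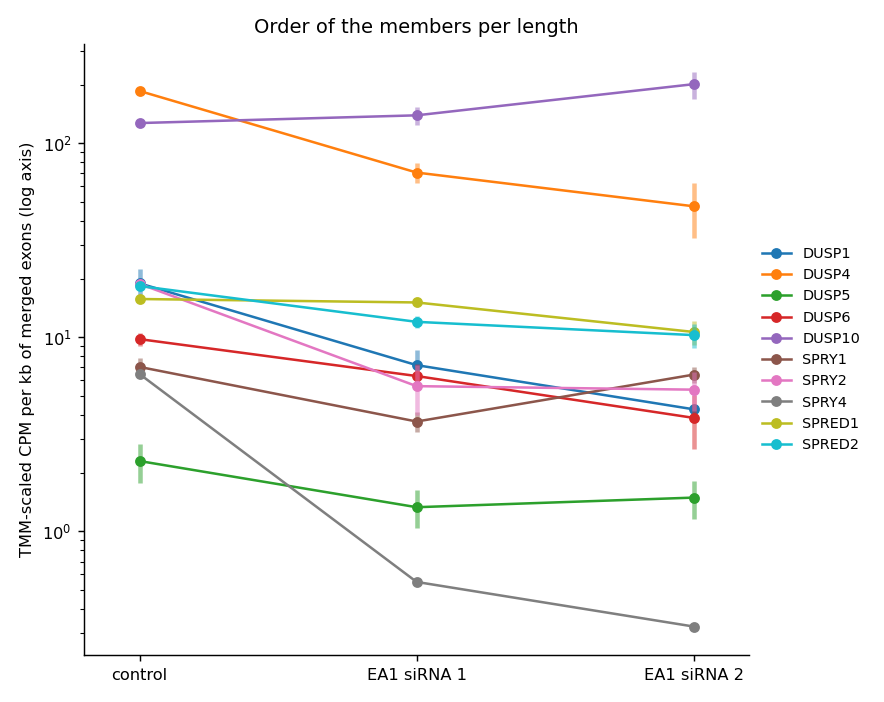
Mean TMM-scaled CPM per kb of merged exons (log axis) of each member in the 3 conditions, with vertical bars from the lower to the higher of 2 libraries. The lines of DUSP4 and DUSP10 cross between control and EA1 siRNA 1, and SPRY4 drops from 6.46 to 0.549 and 0.324.

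Between the siRNAs, no member passed the threshold in either direction by edgeR's quasi-likelihood test (0 of 10 higher under EA1 siRNA 1, where 0.796% of all tested genes were called, and 0 lower, where 1.44% were). At an unadjusted p under 0.05, 5 members were higher and 2 lower under EA1 siRNA 1. DESeq2 called 1, DUSP10 (log2FC -0.55, adjusted p = 0.0131), which was lower under EA1 siRNA 1. With the replicate block, 4 members were past the threshold: DUSP4 (0.61, adjusted p = 0.034) and SPRED1 (0.50, adjusted p = 0.0309) were higher under EA1 siRNA 1, and DUSP10 (-0.525, adjusted p = 0.00955) and SPRY1 (-0.805, adjusted p = 0.0117) were higher under EA1 siRNA 2.

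Without that block, the differences between EA1 siRNA 1 and EA1 siRNA 2 were -0.79 for SPRY1 (95% interval -1.23 to -0.35, adjusted p = 0.0672), 0.50 for SPRED1 (0.21 to 0.79, adjusted p = 0.0784) and -0.53 for DUSP10 (-0.86 to -0.20, adjusted p = 0.0974). DUSP4 differed by 0.57 (0.070 to 1.08, adjusted p = 0.232) and DUSP6 by 0.69 (0.11 to 1.26, adjusted p = 0.209). When the library EA1 siRNA 2 replicate 2 was left out, DUSP4 (1.13, adjusted p = 0.000202), DUSP6 (1.24, adjusted p = 0.00947), SPRED1 (0.73, adjusted p = 0.00313), DUSP10 (-0.73, adjusted p = 0.00204) and SPRY1 (-0.91, adjusted p = 0.0281) were all past the threshold. For SPRY2 the difference was 0.031 with an interval of -0.57 to 0.63 (adjusted p = 0.972).

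Across the 6 libraries, most members that were lower in knockdown varied together, given here as a description over libraries that share conditions and depth. Pearson's r of log2 CPM was 0.996 between DUSP4 and SPRED2, 0.957 between DUSP1 and SPRY4, and 0.961 between SPRY2 and SPRED2. DUSP10 ran opposite to DUSP6 (r = -0.95) and to SPRED1 (-0.914), while SPRY1 was weakly related to DUSP4 (0.218) and DUSP6 (-0.027). Of all tested genes, ADORA2B, an adenosine receptor gene, was most like SPRY4 (r = 0.9995, n = 6), with a log2FC of 3.32 and 4.13. PASK was most like SPRY2 (r = 0.9986), METTL16 most like SPRED2 (0.9981), SSBP2 most like DUSP1 (0.9974), DDX56 most like DUSP4 (0.9974) and PHF13 most like DUSP6 (0.9968). FCHSD2 followed SPRED1 (0.9964), FHOD3 followed SPRY1 (0.9926) and APOLD1 followed DUSP10 (0.9919), and MIR3648-1, which has a near-identical copy and is therefore uncertain, followed DUSP5 (0.996). Second in likeness were GRIPAP1, CNN3, TRIM41, RAB34, MCF2L-AS1, RNFT2, KLF11, XIAP, LINS1 and EIF3H for the same members in that order, at r of 0.9882 to 0.9986. Between 142 and 1512 tested genes correlated with a member at r above 0.9, so that such values are common in these libraries.

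Of the 7 other MAPK phosphatase, Sprouty and SPRED genes, 5 were tested, and DUSP2, DUSP7 and DUSP8 were called higher in control with each siRNA. In that direction, 20.3% and 18.2% of all tested genes were called. The count of 3 under EA1 siRNA 1 became 1 by DESeq2. The median log2FC of the 5 was 0.42 and 0.39, beside -0.024 and 0 over all tested genes. DUSP2, an inducible nuclear phosphatase, fell from 34.8 ± 3.64 CPM to 8.09 ± 1.43 and 6.01 ± 0.561 (SD, n = 2 each; log2FC 2.10 and 2.54, adjusted p 1.22e-05 and 5.74e-06). DUSP8, which acts on JNK and p38 and whose promoter holds the 2 full CREs shown above, had 41 and 43 counts in control, 11 and 14 under EA1 siRNA 1, and 4 and 5 under EA1 siRNA 2 (log2FC 1.59 and 3.01, adjusted p 0.0107 and 0.000627). Its first call was lost without control replicate 1 (adjusted p = 0.0688), without EA1 siRNA 1 replicate 1 (0.106) and by DESeq2 (0.0505). DUSP7, a cytoplasmic ERK phosphatase, had a log2FC of 0.42 and 0.39 (adjusted p 0.0289 and 0.0467), and these calls ended on leaving out, for the first, any control or EA1 siRNA 1 library (0.0593 to 0.174) and, for the second, any control or EA1 siRNA 1 library or EA1 siRNA 2 replicate 2 (0.0578 to 0.215). DESeq2 called DUSP7 with neither siRNA (0.0755 and 0.138), and the second call was also lost without the low-count filter (0.0538) and in edgeR over only the 4 libraries compared (0.0706). DUSP16 (0.19 and 0.26, adjusted p 0.244 and 0.124) and SPRY3 (-0.41 and -0.50, adjusted p 0.295 and 0.208) were not called. DUSP9, with 1 to 17 counts per library, and SPRED3, with 0 to 6, did not pass the filter.

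Transcripts known to follow ERK activity, which was not itself measured here, were mostly higher in control. Of 14 tested genes of this list, 11 were called higher in control under EA1 siRNA 1 and 12 under EA1 siRNA 2, beside 20.3% and 18.2% of all tested genes, with a median log2FC of 1.77 and 1.97; the 11 became 7 where every library had to hold at least 10 counts. LIF, a cytokine gene, measured 15.6 and 12.2 CPM in control and 0.561 to 1.07 over the knockdown libraries (log2FC 3.90 and 4.10, adjusted p 1.98e-05 and 2.33e-05). EPHA2, a receptor tyrosine kinase gene, fell from 39.3 ± 8.92 CPM to 3.56 ± 0.603 and 3.37 ± 2.78 (log2FC 3.45 and 3.61, adjusted p 2.66e-05 and 3e-05), where the latter was 4.81 without EA1 siRNA 2 replicate 1 and 2.91 without replicate 2. PLAUR, the urokinase receptor gene, had 22 and 41 counts in control and 0 to 2 in each knockdown library (adjusted p 0.00106 and 0.000427), too few for a fold. EGR1, an immediate early gene singled out after its values were seen, was the only listed gene called lower in control under EA1 siRNA 1 (log2FC -2.40, adjusted p = 0.000133; -0.86 under EA1 siRNA 2, adjusted p = 0.0827).

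Of 23 tested genes from receptor adaptors to ERK and its kinase targets, 3 were called higher and 9 lower in control under EA1 siRNA 1, and 2 higher and 9 lower under EA1 siRNA 2, with medians of -0.17 and -0.12. Over all tested genes, 20.3% and 18.2% were higher and 19.9% and 18.5% lower. The counts of higher genes here were not above that background, whereas the 9 of 23 lower genes were above it with each siRNA. MAP2K1, which encodes MEK1, fell from 41.5 ± 7.18 CPM to 26.6 ± 1.56 and 24.0 ± 2.02 (log2FC 0.63 and 0.79, adjusted p 0.00914 and 0.00317), the first call being lost without control replicate 1 (0.0962) or EA1 siRNA 1 replicate 2 (0.0656). RPS6KA1, an ERK-activated kinase gene, had a log2FC of 0.87 and 1.08 (adjusted p 0.00364 and 0.00119). The scaffold gene KSR1 rose with knockdown from 9 and 10 counts in control to 26 to 40 (log2FC -2.17 and -1.85, adjusted p 0.00114 and 0.00414). The adaptor gene GAB1 (-1.09 and -0.91, adjusted p 5.44e-05 and 0.000261) and the kinase gene RPS6KA2 (-0.37 and -1.23, adjusted p 0.0112 and 4.49e-06) also rose, the call of RPS6KA2 under EA1 siRNA 1 ending without control replicate 2 (0.162) or without EA1 siRNA 1 replicate 1 (0.0608) or 2 (0.0816). The count of 3 higher became 1 without control replicate 1 or EA1 siRNA 1 replicate 2 and 5 without either EA1 siRNA 2 library or in edgeR over the 4 libraries compared, and the 9 lower under EA1 siRNA 2 became 5 without control replicate 2.

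Among the JNK, p38 and ERK5 kinases and their activators, 3 of 10 tested genes were called lower in control under EA1 siRNA 1 and 4 under EA1 siRNA 2, beside 19.9% and 18.5% of all tested genes, and the rest were not called (medians -0.33 and -0.44). Under EA1 siRNA 1, 1 gene was higher in control with the replicate block, without either EA1 siRNA 2 library and in edgeR over the 4 libraries compared, and under EA1 siRNA 2, 1 was higher without EA1 siRNA 2 replicate 1. MAP2K5, which activates ERK5, rose from 23.3 ± 2.80 CPM to 47.4 ± 10.85 and 47.4 ± 5.16 (log2FC -1.03 and -1.02, adjusted p 0.000784 and 0.000976). MAP2K6, which activates p38, rose as well (-0.54 and -0.90, adjusted p 0.00318 and 0.000108). MAP2K4, which activates JNK, rose under EA1 siRNA 2 (-0.79, adjusted p = 0.00233), while the call under EA1 siRNA 1 (-0.45, adjusted p = 0.0431) ended without any control or EA1 siRNA 1 library (0.068 to 0.273), under RLE scaling (0.051), without the filter (0.0504) and by DESeq2 (0.17).

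Genes listed as other negative regulators of receptor and RAS signaling changed in both directions. Of 15 tested, 5 were called higher and 6 lower in control under EA1 siRNA 1 (median -0.17). With EA1 siRNA 2, 3 were called higher and 6 lower (median 0.057). The shares of all tested genes were 20.3% and 18.2% higher and 19.9% and 18.5% lower. The 3 higher were near that share, and the 6 lower were above it with each siRNA. The 5 higher became 3 without control replicate 2 and 2 without EA1 siRNA 1 replicate 2. RASA3, a RAS GTPase-activating protein gene, fell from 178 ± 7.35 CPM to 55.1 ± 4.52 and 44.7 ± 9.07 (log2FC 1.69 and 1.98, adjusted p 2.86e-06 and 1.37e-06). RASAL2, of the same protein class, had a log2FC of 0.56 and 0.72 (adjusted p 0.000948 and 0.000222). ERRFI1, an inhibitor of the EGF receptor, had 0.89 and 0.69 (adjusted p 0.0142 and 0.0457), the first call being lost without control replicate 1 (0.0876) or EA1 siRNA 1 replicate 2 (0.0942), and the second without any 1 library but EA1 siRNA 2 replicate 2 (0.054 to 0.206) and by DESeq2 (0.149). TRIB1, a pseudokinase gene, rose with knockdown from 60.9 ± 3.20 CPM to 463 ± 13.2 and 407.5 ± 116 (log2FC -2.93 and -2.74, adjusted p 4.17e-07 and 7.81e-07). TRIB1 is counted among the 6 lower in control, although its place on a list of inhibitors is uncertain. IL17RD, an inhibitor of FGF receptor signaling related in function to the Sprouty genes, rose from 7 and 13 counts to 25 to 64 (-2.80 and -1.94, adjusted p 0.000437 and 0.00728), the second call ending without EA1 siRNA 2 replicate 1 (-1.32, adjusted p = 0.066), and LRIG1, an inhibitor of ERBB receptors, rose too (-0.90 and -1.02, adjusted p 0.00436 and 0.00222).

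**Figure D5:**
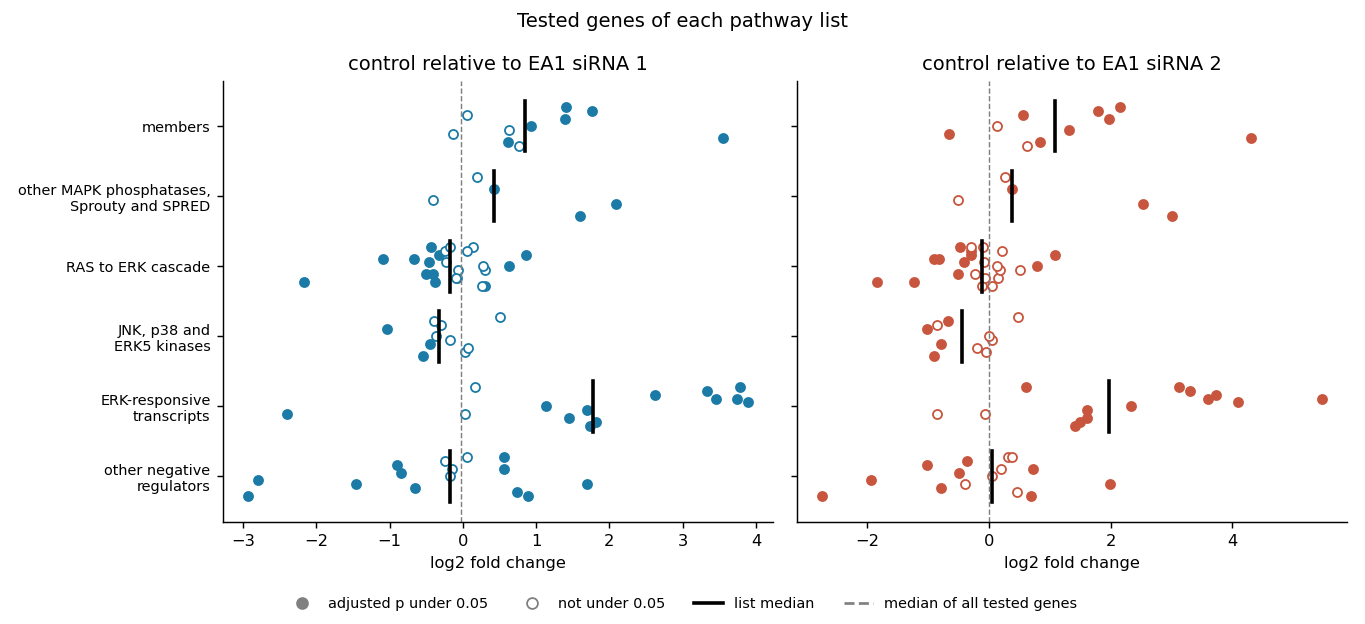
log2 fold change in control relative to EA1 siRNA 1 (left) and EA1 siRNA 2 (right) for every tested gene of each list (rows); filled points have an adjusted p under 0.05, black bars are list medians and the dashed line is the median of all tested genes. The ERK-responsive list has medians of 1.77 and 1.97 and the members of 0.85 and 1.08. The medians of the RAS to ERK cascade are -0.17 and -0.12.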

How the data were processed

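RNA-seq of 6 SU-CCS-1 libraries (control, EA1 siRNA 1 and EA1 siRNA 2, 2 each, grouped by the sample titles) was analysed. Per the study's methods and the submitters' processing notes, the authors used BWA-MEM for alignment to hg38 and featureCounts 1.6.3 for counting, and what they deposited are raw gene counts with no normalization. The annotation and strand setting are not given in the sources used here. The labels name a TruSeq Stranded mRNA kit. Counts of close paralogs and of genes that overlap on opposite strands may therefore mix or be lost in part.

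From these counts, a quasi-likelihood model of the 3 conditions was fitted in edgeR 4.0.16 (R 4.3.3) after TMM scaling. filterByExpr, grouped by condition, required 10 counts and a sum of 15 and left 14571 genes, over which p was adjusted (Benjamini-Hochberg); the threshold for a call was 0.05. Standard errors come from the F statistic, log2 CPM used a prior count of 2, and floors of 3 counts cover counting error only. Coordinates and exon lengths come from GENCODE 44 (18063 of 18118 identifiers matched), and promoters from RefSeq (GRCh38.p14). The script was tested on simulated counts. Same-numbered libraries deviated together (r 0.13 to 0.199 between conditions over genes; the numbers are from the titles), so the replicate block is given where it changed a call.

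The members and all lists were chosen with earlier results of these data known. Named genes are the members, ATF1 and EWSR1, the 7 relatives, from each other list up to 3 genes per direction with the largest averaged log2FC among those called with each siRNA, and the 2 genes most like each member. Alternatives were RLE scaling, other filters, the block, each library left out, DESeq2 1.42.0, only the 4 libraries compared, and the knockdown libraries as 1 condition. The counts of the other lists were added to these alternatives after the data were seen. Protein sequences were not analysed here.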

Additional observations from a re-analysis of the deposited data

How the results depend on the processing

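Over 504 alternative values of the members' log2FC, 463 kept direction and side of the threshold, 17 lost and 17 gained the call and 7 turned sign, each of the 7 on leaving out 1 library and none a called value. Leave-one-out ranges of the results that turned were -0.505 to 0.204 for DUSP5 between the siRNAs, -0.253 to 0.024 for DUSP10 with EA1 siRNA 1, -0.035 to 0.322 for SPRY1 with EA1 siRNA 2, -0.445 to 0.427 for SPRY2 between the siRNAs, -0.015 to 0.161 for SPRED1 with EA1 siRNA 1, and, for EWSR1, -0.046 to 0.156 with EA1 siRNA 2 and -0.013 to 0.193 against the mean. Members lower in control numbered 0 to 1 with EA1 siRNA 2 and 0 to 1 against the mean on leaving out single libraries, and 0 against the mean with the 4 knockdown libraries as 1 condition. Members higher in control against the mean numbered 6 to 8. Between the siRNAs, members higher with EA1 siRNA 1 numbered 2 with the replicate block and 0 to 3 on leaving out single libraries; members lower numbered 2 with the block, 1 with DESeq2 over 3 conditions, 1 with DESeq2 over 4 libraries and 0 to 2 on leaving out single libraries. Against control, the block changed 1 member call, DUSP6 with EA1 siRNA 1, and no call of another named gene. Over all genes, calls between the siRNAs rose from 116 higher and 210 lower to 323 and 530 with the block, and ran from 13 and 20 without EA1 siRNA 1 replicate 2 to 317 and 471 without EA1 siRNA 2 replicate 2 and from 71 and 105 in edgeR over 4 libraries upward. Against EA1 siRNA 1, the 2898 genes lower in control became 1892 without control replicate 2, 1913 without EA1 siRNA 1 replicate 2; against EA1 siRNA 2 the 2702 lower became 1767 and against the mean the 3131 became 2030 without control replicate 2, and DESeq2 over 4 libraries called 1782. The cause was not tested. Leaving out a library leaves 1 in its condition, assumed to vary like the others. Depth limits genes with few counts, such as PLAUR with as few as 0, LIF and DUSP8 with 4, IL17RD with 7, KSR1 with 9 and, of the members, SPRY4 with 12 and DUSP5 with 16.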

Other observations

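Within each condition, some members differed between the libraries numbered 1 and 2 in the same direction in all 3 conditions. DUSP5 was higher in replicate 1 by 0.64 log2 units in control, 0.59 under EA1 siRNA 1 and 0.60 under EA1 siRNA 2, SPRY1 by 0.32, 0.34 and 0.26, and DUSP10 by 0.081, 0.30 and 0.46. DUSP4 was lower in replicate 1 in all 3, at -0.017, -0.35 and -0.93. SPRY4 had the smallest gaps of the Sprouty genes in knockdown, at -0.14 and 0.018. These genes were picked after their values were seen, and the differences were not tested.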
